A study of Mus musculus with 8 samples.

Results

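Hippocampal CA pyramidal neurons were represented by 1121 nuclei, 2.504% of the 44762 nuclei that passed the quality limits in single-nucleus RNA-seq of mouse forebrain. A nucleus passed with at least 1000 unique molecular identifiers (UMIs, each a count of 1 captured RNA molecule), at least 300 detected genes and at most 5% of its UMIs from mitochondrial genes. A member then had at least 1 UMI of Slc17a7, the vesicular glutamate transporter of forebrain excitatory neurons, at least 4 UMIs of Zbtb20, a transcription factor of hippocampal pyramidal identity, and at least 2 UMIs of Fibcd1 and Grik4 together. Fibcd1 is a membrane receptor gene used as a marker of field CA1, and Grik4 encodes a kainate receptor subunit that is abundant in CA3. Nuclei with more than 1 UMI of Prox1 (dentate granule cells), of Gad1 and Gad2 together (inhibitory neurons) or of Tcf7l2 (thalamus), or with any UMI of Mog, Aqp4, Cx3cr1 or Pdgfra (glia), were left out. Of the members, 178 carried a Fibcd1 UMI and 943 did not, and these are described side by side. On mouse build GRCm38 the genes that set the rule lie at chr7:45163949-45176142 (Slc17a7), chr16:42875881-43642602 (Zbtb20), chr2:31813290-31846005 (Fibcd1) and chr9:42518135-42944493 (Grik4).

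CA pyramidal neurons are the excitatory projection cells of Ammon's horn. CA3 neurons receive mossy fibre input from the dentate gyrus and send Schaffer collaterals to CA1, whose neurons carry the output of the hippocampus to the subiculum and the cortex. The circuit serves spatial and episodic memory, and its synapses are a standard model of long-term potentiation. CA1 neurons are known for delayed death after global ischaemia and CA3 neurons for loss after head injury and seizures, which makes the population relevant to a study that joins reduced cerebral blood flow with trauma.

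The animals were male mice of the outbred Swiss Webster stock, aged 10 weeks, and a 2 mm cube of perilesional forebrain was taken after control surgery, BCAS, TBI (traumatic brain injury) or both surgeries. The labels give BCAS only as an abbreviation, under a series title that names cerebral hypoperfusion, and the sources used here do not give the time between surgery and collection. Each of the 4 groups had 2 libraries, labelled as biological replicates, and with n = 2 the p-values rest on the spread between these samples. The 8 libraries held 28118725 to 56135192 UMIs and fell into 2 sets by depth. Set 1 (control 1, BCAS 1, TBI 1 and BCAS+TBI 2) reached at most 33363564 UMIs, and set 2 (the other 4) held at least 42651388, so that each set had 1 library of every group. The first principal component of the summed members, with 48.75% of the variance, separated the sets. Ribosomal protein genes took 0.3817 to 0.53% of member UMIs in set 1 and 0.1411 to 0.1522% in set 2. Library pairs shared 5 to 20 barcodes, none of them a member's.

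The libraries gave 82 (control 1), 188 (control 2), 88 (BCAS 1), 149 (BCAS 2), 94 (TBI 1), 236 (TBI 2), 165 (BCAS+TBI 1) and 119 (BCAS+TBI 2) members. The median member held 6593.5 to 11382.5 UMIs and 2948 to 3839 genes across libraries, against 4470 to 8724 UMIs in the 12118 other Slc17a7 nuclei that did not meet the rule. Fibcd1-positive nuclei numbered 12 to 38 per library.

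The marker genes of each field followed the split, with exceptions. Levels here and below are CPM, a gene's UMIs divided by all UMIs of the same summed nuclei and scaled to 1e6. The CA1 markers were higher in Fibcd1-positive than in Fibcd1-negative nuclei, with Man1a, a Golgi mannosidase, at 481 against 147 CPM and Mpped1, a metallophosphoesterase, at 217 against 45.3. Wfs1, an endoplasmic reticulum membrane protein gene of dorsal CA1, stood at 48.1 against 9.01 and Pou3f1, a POU-domain transcription factor gene, at 42.3 against 5.63. The CA3 markers had the opposite order, with the adhesion gene Nectin3 at 56.8 against 260 and the copine gene Cpne4 at 105 against 620 CPM. Spink8 was nearly level, at 13.9 against 9.21.

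Per nucleus, 141 of the 178 Fibcd1-positive nuclei (79.21%) had more UMIs of the CA1 list than of the CA3 list, and 732 of the 943 Fibcd1-negative nuclei (77.62%) had more of the CA3 list. The other class was a minority in both, since 22 Fibcd1-positive nuclei leaned to CA3 and 156 Fibcd1-negative nuclei (16.54%) to CA1. Fibcd1 was a sparse transcript, with a median of 2 UMIs in the nuclei that carried it, and a nucleus without a UMI is not shown to lack it. Among other Slc17a7 nuclei 2.319% had a Fibcd1 UMI. Of the 8 CA2 markers, 7 were higher in the Fibcd1-negative nuclei, among them Amigo2 (1.16 CPM in Fibcd1-positive against 9.31 in Fibcd1-negative nuclei) and Necab2 (16.8 against 26.0), and Rgs14 had the opposite order (15.1 against 9.93). The Fibcd1-negative nuclei are called here by the rule and not by 1 field.

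Some of the markers of other cell types were limited by the rule itself, so their levels say nothing of purity: Prox1 stood at 8.70 CPM in members, Gad1 at 5.13 and Gad2 at 5.04, and Aqp4, Mog, Cx3cr1 and Pdgfra were at 0. Outside the rule, no gene of these lists was at 0 in members. All 8 inhibitory markers were detected, Slc32a1 at 3.39 CPM, and their summed level ranged from 51.5 to 133 CPM per library. The cortical list was mixed. Of its 12 genes 9 were lower in members than in the other Slc17a7 nuclei, among them Cux2 (44.4 against 132 CPM) and Rorb (42.4 against 251), and 3 were higher, Hs3st4 (1075 against 582.5), Tle4 (147 against 136) and Etv1 (96.9 against 89.2). The highest gene of the striatal list, Pde10a, reached 609 CPM. Of the 8 astrocyte genes outside the rule, Slc1a2 reached 351 and Gfap 1.48, and the highest of 8 microglial genes, P2ry12, was at 20.7. What these levels add to the results was not tested.

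The nuclei at the edge of the Zbtb20 limit had more of the cortical gene Cux2 than members as a whole. In the 80 members with exactly 4 Zbtb20 UMIs, Rnf182, a ubiquitin ligase gene of the CA3 list, was at 16.1 CPM and Cux2 at 126. The 135 nuclei that met every other limit with 3 Zbtb20 UMIs had 16.1 and 138. At the other limit, the 296 members with 2 UMIs of Fibcd1 and Grik4 had Man1a at 239 CPM, and the 490 nuclei with 1 such UMI had it at 284. In all, 272 members had fewer than 10 Zbtb20 UMIs, and they held 21.91% of member UMIs. A further view of purity came from 158 members with a UMI of an inhibitory marker (Gad1, Gad2, Slc32a1, Dlx1 or Dlx6os1), which held 15.64% of member UMIs. These shares are the base against which the UMIs of single genes are read below.

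CA pyramidal nuclei were not detectably rarer or more common after either surgery. They made up 1.622% (control 1), 3.332% (control 2), 1.748% (BCAS 1), 2.355% (BCAS 2), 1.906% (TBI 1), 3.285% (TBI 2), 2.938% (BCAS+TBI 1) and 2.395% (BCAS+TBI 2) of passing nuclei. Exact binomial 95% intervals, which cover counting error only, ran from 1.292 to 2.009% in control 1 and from 2.879 to 3.833% in control 2, so the 2 controls differed beyond it. The share was 1.622 to 2.395% in set 1 and 2.355 to 3.332% in set 2. Passing nuclei with at least 3000 UMIs were also thinned to 3000. Those with fewer were left out, 1561 to 1777 per library in set 1 and 1212 to 1564 in set 2. Among the thinned nuclei, a smaller base than all passing nuclei, the sets overlapped, at 1.008 to 2.056% and 1.217 to 1.522%. The part of depth in the difference between sets was not tested.

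Libraries with TBI had a member share of 2.63% ± 0.607 (SD, n = 4) and those without 2.26% ± 0.780 (n = 4), with an exact two-sided permutation p of 0.486. Libraries with BCAS had 2.36% ± 0.486 and those without 2.54% ± 0.900 (n = 4 each, exact permutation p = 0.8). The TBI difference was 0.466 percentage points within set 1 and 0.268 within set 2, and the BCAS difference was 0.308 and -0.662. How much hippocampus the cube took and how many CA neurons survived in it cannot be told apart in these data, and the same holds for fewer nuclei of a kind against fewer that passed the rule.

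The Fibcd1-positive share of members was 14.63% (control 1), 17.02% (control 2), 17.05% (BCAS 1), 12.08% (BCAS 2), 17.02% (TBI 1), 16.1% (TBI 2), 17.58% (BCAS+TBI 1) and 15.13% (BCAS+TBI 2). It was 16.5% ± 1.08 with TBI and 15.2% ± 2.37 without (n = 4 each, exact permutation p = 0.429), and 15.5% ± 2.49 with BCAS and 16.2% ± 1.13 without (exact permutation p = 0.714). The smallest p that 4 against 4 libraries allow is 0.0286, and all 4 share tests had a Benjamini-Hochberg adjusted p of 0.8. The arms overlapped in each comparison.

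**Figure D1:**
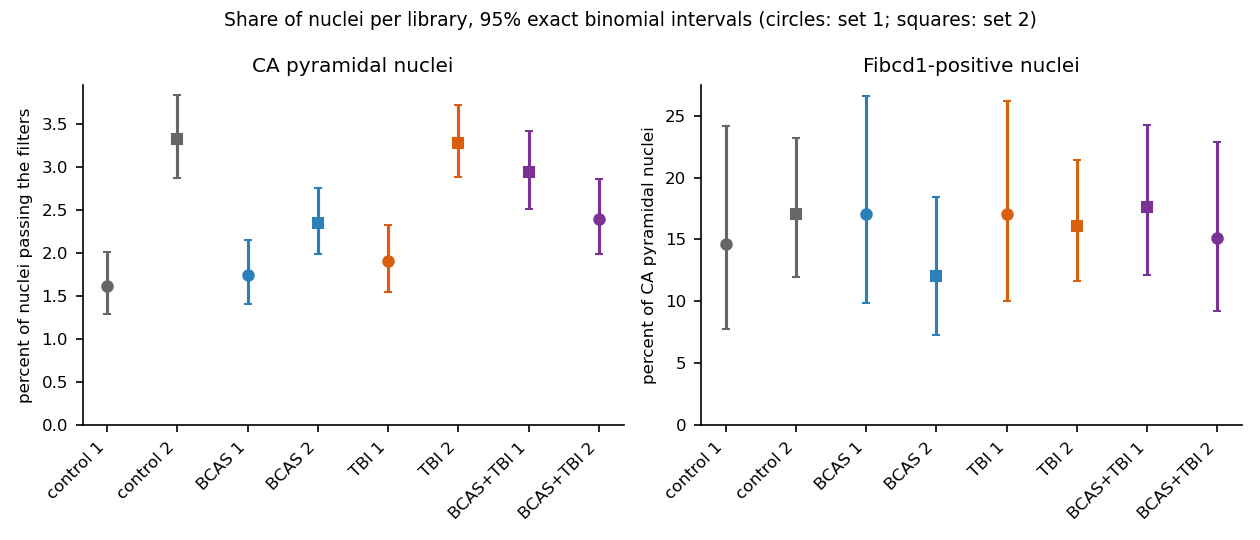
CA pyramidal nuclei as a percentage of passing nuclei (left) and Fibcd1-positive nuclei as a percentage of CA pyramidal nuclei (right) in each of the 8 libraries, with exact binomial 95% intervals; circles are library set 1 and squares set 2. The member share ran from 1.622 to 3.332% and was mostly higher in set 2, while the Fibcd1-positive share stayed between 12.08 and 17.58%.

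The 2 classes of nuclei differed in many genes beside the field markers. Because Fibcd1 and Grik4 set the split, the contrast is a description with no test. Among 9970 genes with at least 100 member UMIs, 3.29% were higher in Fibcd1-positive nuclei in 8 of 8 libraries and 4.243% lower in 8 of 8. With predicted, mitochondrial and rule genes set aside, 56 genes ordered alike in 8 of 8 libraries were at least 2-fold higher in the pooled Fibcd1-positive nuclei and 101 in the Fibcd1-negative ones, as ratios of CPM + 10.

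On the Fibcd1-positive side the largest ratio belonged to Tenm3, a teneurin adhesion molecule known for the topographic wiring of CA1 to the subiculum. Its level was lowest at 595, with a median of 1121 and a highest of 1880 CPM over the 8 libraries, against 65.3, 196 and 306 in Fibcd1-negative nuclei. The ranges did not overlap. Galntl6, of the family that starts O-linked glycosylation, had a median of 4900 (range 3262 to 7372) against 984 CPM (682 to 1261), also without overlap.

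Signalling genes followed the same order in smaller numbers of UMIs. Ror1, a receptor tyrosine kinase of Wnt signalling, had medians of 161 and 30.9 CPM, and Pde11a, a phosphodiesterase of both cyclic nucleotides, 242 and 44.2. Arhgap12, a GTPase-activating protein gene of excitatory synapses, had 258 and 48.3. The metalloprotease gene Adam12 (102 and 13.6), the glypican gene Gpc5 (787 and 196) and the copine gene Cpne8 (256 and 60.3) belonged to the same side. Pantr1, a long noncoding RNA, had medians of 146 and 27.6 CPM, and Stac, an adaptor of L-type calcium channels, 73.2 and 7.07, although its Fibcd1-positive range reached down to 8.75.

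On the Fibcd1-negative side, Ccbe1, whose product takes part in VEGF-C processing, had a median of 36.2 CPM (range 2.94 to 93.3) in Fibcd1-positive and 321 (256 to 415) in Fibcd1-negative nuclei. Smoc2, a matricellular calcium-binding protein gene, was at 0 to 44.8 against 81.9 to 140 CPM, and its median in Fibcd1-positive nuclei was 0. Adamts9, a matrix protease gene, had medians of 7.77 and 60.3.

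Adhesion and vesicle genes of the mossy fibre to CA3 pathway stood on this side too. Cdh9, a cadherin of mossy fibre synapses on CA3 neurons, had medians of 70.3 and 399 CPM, and Synpr, a synaptic vesicle membrane protein gene, 13.0 and 178. Cdh13 (23.3 and 223) and Clmp (25.4 and 109) are further adhesion genes. Among nuclear factors, Trps1, a GATA-type repressor, had 148 and 843 CPM and Dpf3, a subunit of the BAF chromatin remodelling complex, 4.10 and 132. The Fibcd1-negative range lay above the Fibcd1-positive range for each of these genes. Of the 6 dentate granule markers outside the rule, 5 were also higher in the pooled Fibcd1-negative nuclei. Among them were Glis3 (11.58 CPM in Fibcd1-positive and 58.54 in Fibcd1-negative nuclei) and Stxbp6 (32.43 and 111.5), while C1ql3 had the opposite order (62.55 and 57.82). A Prox1 UMI was found in 1.685% of Fibcd1-positive and 10.29% of Fibcd1-negative nuclei. The part of granule cells in these levels was not tested.

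**Figure D2:**
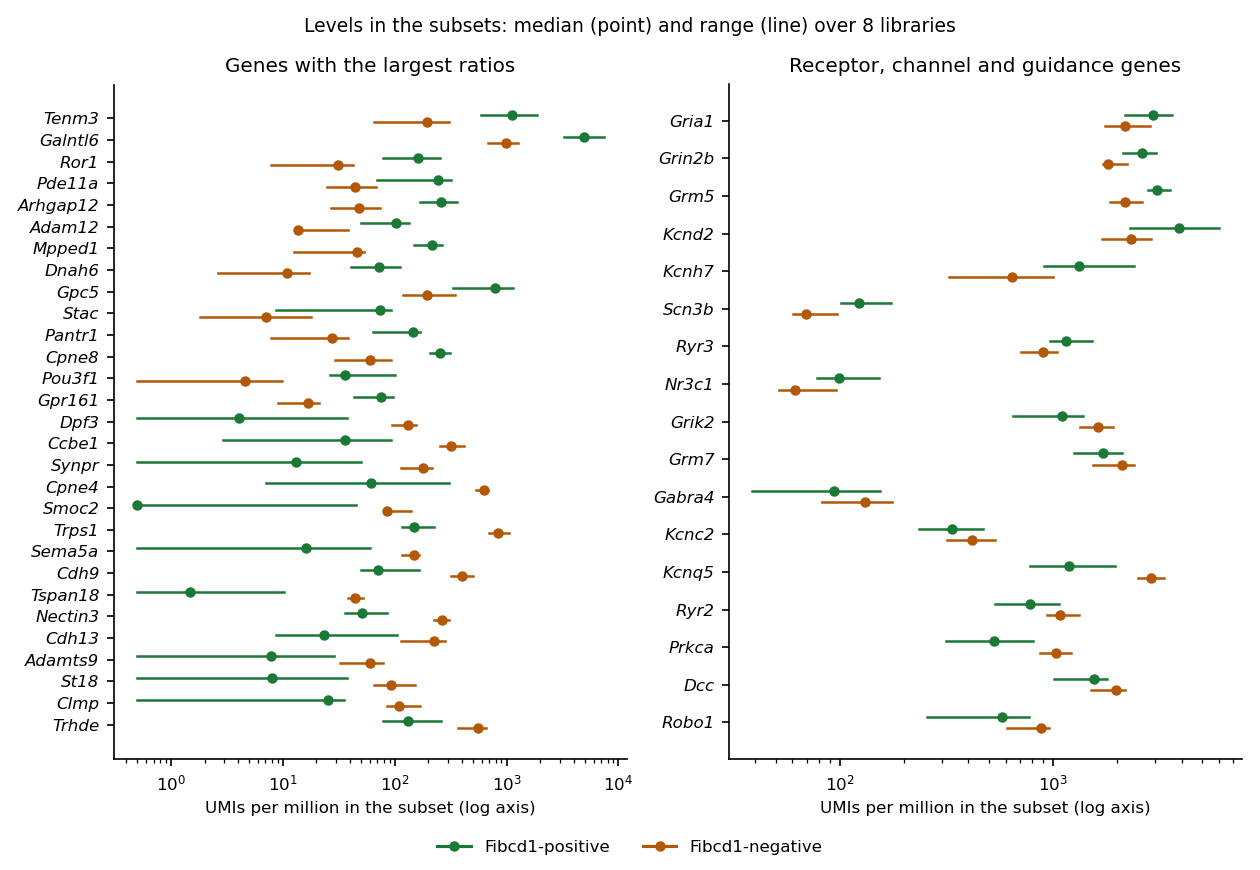
Level in CPM (log axis) in Fibcd1-positive (green) and Fibcd1-negative (orange) CA pyramidal nuclei, as the median and the range over 8 libraries, for the genes with the largest ratios (left) and for receptor, channel and guidance genes (right); libraries at 0 are drawn at 0.5. Tenm3 and Galntl6 separate fully to one side and Ccbe1, Trps1 and Cdh9 to the other, while receptor genes differ less.

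Glutamate receptor genes were divided between the 2 kinds of nuclei. The AMPA receptor subunit Gria1 had a median of 2930 CPM (2162 to 3623) in Fibcd1-positive and 2172 (1744 to 2833) in Fibcd1-negative nuclei, higher in 8 of 8 libraries, with ranges that overlapped. The NMDA receptor subunit Grin2b (2596 and 1813) and the group I metabotropic receptor Grm5 (3079 and 2166) had the same order in 8 of 8. The kainate subunit Grik2 (1106 and 1630) and its auxiliary protein Neto1 (161 and 572) had the reverse order in 8 of 8. By list, 2 of 12 AMPA receptor genes were higher in Fibcd1-positive nuclei in 8 of 8 libraries and 1 lower. Of 6 kainate genes 0 were higher and 2 lower, and of 8 metabotropic and Homer genes 2 were higher and 3 lower.

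Potassium channels split evenly, 5 of 27 to each side. Kcnd2, the A-type channel subunit Kv4.2, had a median of 3897 CPM (2285 to 5970) in Fibcd1-positive and 2322 (1701 to 2868) in Fibcd1-negative nuclei, with overlap, and Kcnh7, an ERG channel, 1328 and 640. The M-current gene Kcnq5 was on the other side with 1189 (779 to 1952) against 2871 CPM (2488 to 3298), without overlap. Kcnd3, a further A-type subunit, had medians of 146 and 293. Of 14 calcium channel genes 2 were higher and 2 lower, among them the T-type Cacna1g (45.5 and 23.4) and the L-type Cacna1c (594 and 1036).

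Calcium stores and kinases also differed by member of a family. Itpr1, the inositol trisphosphate receptor, had medians of 421 and 189 CPM and Ryr3 1147 and 898, whereas the ryanodine receptor Ryr2 had 778 and 1078. Protein kinase C split by isoform, with Prkcb at 657 and 410 and Prkca at 527 and 1032. Of 25 axon guidance and adhesion genes 3 were higher and 6 lower, the latter including the netrin receptors Dcc (1556 and 1963) and Unc5c (692 and 1286), the Slit receptor Robo1 (577 and 875) and Sema5a (16.1 and 149). Nr3c1, the glucocorticoid receptor gene, was higher in Fibcd1-positive nuclei (99.1 and 62.0), and Nr3c2, the mineralocorticoid receptor gene, was not ordered (799 and 752, higher in 4 of 8). No gene of the hypoxia, heat shock, injury or immediate early lists was higher or lower in 8 of 8.

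The other Slc17a7 nuclei of the same libraries hold cortical and further excitatory neurons. Against them, the named genes with the largest ratios in CA pyramidal nuclei were Ccbe1, Rerg and Shisa6. Ccbe1 was high in the Fibcd1-negative members, at 345 CPM in the pooled nuclei. In Fibcd1-positive members it was at 44.0 CPM, close to the 39.1 of the other Slc17a7 nuclei. The contrast again describes the choice of nuclei and has no test. Of 9970 genes 11.04% were higher in members in 8 of 8 libraries and 14.17% lower, and 103 genes higher in all 8 were at least 2-fold higher in the pooled nuclei, as ratios of CPM + 10. Shisa6, an AMPA receptor auxiliary subunit, had a median of 816 CPM (648 to 859) in members and 172 (137 to 183) in the others. Rerg, a Ras-related GTPase gene, had 103 (72.9 to 118) and 11.8 (6.97 to 14.1). The ranges of both were far apart.

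Receptors for growth and guidance signals were among the genes with the largest ratios. Kit, the stem cell factor receptor, had medians of 80.0 and 13.3 CPM, and Nrp1, the co-receptor of class 3 semaphorins and VEGF, 369 and 109. Slit1, a repellent ligand of Robo receptors, had 294 and 88.8. The Hippo pathway transcription factor Tead1 (184 and 45.2), the desmosomal gene Pkp2 (142 and 32.5), the collagen gene Col11a1 (184 and 46.3) and the copine gene Cpne7 (213 and 52.1) followed the same order in 8 of 8. Nkain3, which encodes a protein that binds the sodium pump, had a median of 731 (680 to 772) against 196 CPM (157 to 222).

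The receptor lists gave a similar division. Gria1 had a median of 2301 CPM in members (1858 to 2877) and 878 (743 to 1108) in the others, and Gabra5, the GABA-A subunit of extrasynaptic receptors in the hippocampus, 171 and 55.8. Nr3c2, the mineralocorticoid receptor that hippocampal neurons are known for, had 773 (688 to 894) against 272 (219 to 308), while the glucocorticoid receptor Nr3c1 was lower in members, at 70.9 against 129. Cacnb2 (1310 and 512), Prkca (950 and 365), Ryr3 (958 and 394), Sema3e (205 and 62.5) and Dcc (1895 and 878) were higher in members in 8 of 8 libraries. Grik1 (53.2 and 172), Grm3 (95.5 and 330), Grm8 (166 and 432) and Kcnh7 (716 and 1854) were lower in 8 of 8. Axon guidance genes were the list most often higher, 15 of 25, with 7 lower.

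**Figure D3:**
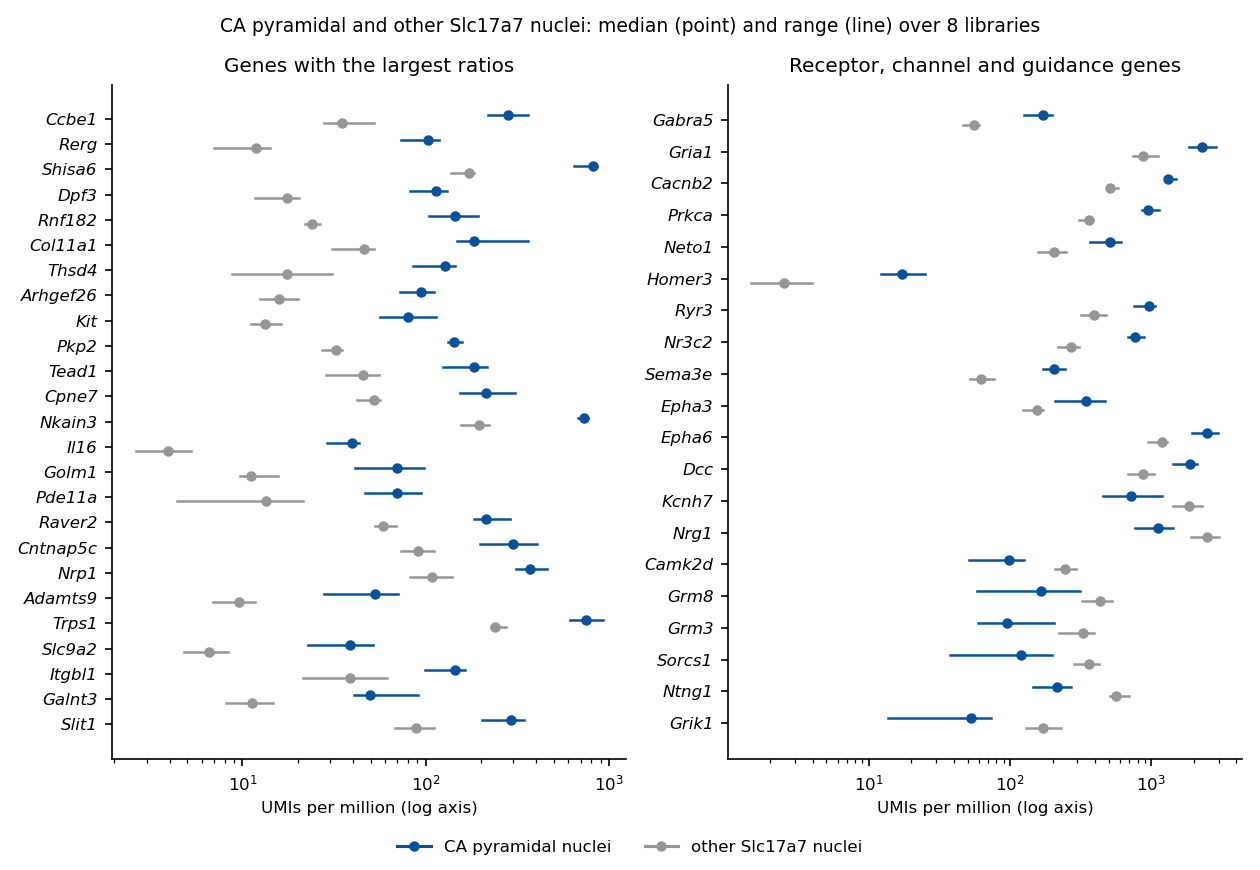
Level in CPM (log axis) in CA pyramidal nuclei (blue) and in other Slc17a7 nuclei (grey), as the median and the range over 8 libraries, for the genes with the largest ratios (left) and for genes of the function lists (right). Shisa6, Nkain3 and Nr3c2 show ranges that are far apart, and Grik1, Grm3 and Grm8 lie on the other side.

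TBI was compared over its 4 libraries against the 4 without it, on member UMIs summed per library. edgeR's quasi-likelihood test with library set as a term and Benjamini-Hochberg adjustment over 12070 genes called a change at an adjusted p under 0.05. After TBI 3 genes passed, 0.0249% of those tested, with 1 higher (0.00829%) and 2 lower (0.0166%). Both lower genes belong to ErbB signalling: Erbb4, the neuregulin receptor tyrosine kinase, and Erbin, a scaffold protein that binds ErbB2. The higher one was the predicted gene Gm14172. An unadjusted p under 0.05 was found for 594 genes, and DESeq2 called 0. Without the library set term edgeR called 0 as well, and without single libraries its count ran from 0 (without control 2, BCAS 2, BCAS+TBI 1 or BCAS+TBI 2) to 8 without control 1, 12 without BCAS 1 and 28 without TBI 1.

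Erbb4 (chr1:68032186-69108059) stood at 47.8 (control 1), 176 (control 2), 83.6 (BCAS 1) and 218 (BCAS 2) CPM without TBI, and at 60.8 (TBI 1), 88.9 (TBI 2), 98.3 (BCAS+TBI 1) and 47.6 (BCAS+TBI 2) with it. The arms overlapped, since control 1 was as low as the TBI libraries, and the high values were the set 2 libraries without TBI. The mean was 73.9 ± 23.7 with TBI and 132 ± 79.2 without (SD, n = 4 each), and Erbb4 fell by 0.84 on the log2 scale (SE 0.14, edgeR adjusted p = 0.0217). Within the sets the difference in log2(CPM + 1) was -0.23 in set 1 and -1.06 in set 2. The call was lost without control 2 (-0.52), BCAS 2 (-0.74), TBI 2 (-0.53), BCAS+TBI 1 (-0.77) or BCAS+TBI 2 (-0.87).

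Erbb4 is also a marker of cortical interneurons, and 35.6% of its UMIs lay in members with an inhibitory marker UMI, against 15.64% of all UMIs. Without those members, a selection made after the data were seen, Erbb4 was at -1.33 (edgeR adjusted p = 0.000929), and in members with at least 10 Zbtb20 UMIs it was at -1.10 (edgeR adjusted p = 0.0230). The call was lost with a stricter gate, of at least 6 Zbtb20 UMIs and 3 UMIs of Fibcd1 and Grik4 together (-0.51, edgeR adjusted p = 0.955) and without the nuclei with the highest Scrublet (doublet) scores (-0.29, edgeR adjusted p = 0.909).

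Erbin (chr13:103818787-103920514) stood at 32.4, 24.6, 25.2 and 49.9 CPM in control 1, control 2, BCAS 1 and BCAS 2, and at 18.8, 13.2, 13.9 and 7.94 in TBI 1, TBI 2, BCAS+TBI 1 and BCAS+TBI 2. Every library with TBI was below every library without it, a pattern that 0.704% of tested genes showed. The mean was 13.5 ± 4.44 against 33.0 ± 11.8 (SD, n = 4 each), and Erbin fell by 1.32 on the log2 scale (SE 0.24, edgeR adjusted p = 0.0450). It was -1.15 within set 1 and -1.31 within set 2. The direction held without any 1 library, but the call was lost without control 1 (-1.17), control 2 (-1.62), BCAS 2 (-0.90), TBI 2 (-1.004), BCAS+TBI 1 (-1.58) or BCAS+TBI 2 (-1.23). It was also lost with the stricter gate (-1.45, edgeR adjusted p = 0.132), with at least 10 Zbtb20 UMIs (-1.31, edgeR adjusted p = 0.0888) and with a minimum count of 30 (-1.32, edgeR adjusted p = 0.0831). Its counts were small, 267 UMIs in 161 nuclei.

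Of the next genes by p-value, Etl4 was lower with TBI (-0.42, edgeR adjusted p = 0.151) and Lsm4, an RNA-processing gene, higher (1.97, edgeR adjusted p = 0.151), neither past the threshold. Lsm4 rested on 57.8 CPM in BCAS+TBI 2, against 1.63 to 15.6 in the other libraries. Tmem181c-ps (-3.07, edgeR adjusted p = 0.151) is a pseudogene with near-identical copies, so its counts are uncertain.

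BCAS was compared over its 4 libraries in the same way. In CA pyramidal nuclei 5 of 12070 genes passed, 0.0414%, with 4 higher (0.0331%) and 1 lower (0.00829%). Of these, 4 were mitochondrial transcripts that were higher (mt-Cytb, mt-Nd2, mt-Nd4 and mt-Rnr1, of the respiratory chain and the mitochondrial ribosome) and 1, Fggy, was lower. Fggy encodes a carbohydrate kinase. An unadjusted p under 0.05 was found for 527 genes, and DESeq2 called 0. Without the library set term edgeR called 0, and without single libraries it called 0 (without BCAS+TBI 2), 1 (BCAS 2), 8 (BCAS+TBI 1), 10 (control 2), 11 (TBI 2), 15 (BCAS 1) and 16 (TBI 1).

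mt-Cytb, the cytochrome b subunit of complex III, stood at 416 (control 1), 194 (control 2), 253 (TBI 1) and 112 (TBI 2) CPM without BCAS and at 494 (BCAS 1), 221 (BCAS 2), 190 (BCAS+TBI 1) and 609 (BCAS+TBI 2) with it. The arms overlapped, set 1 was above set 2, and BCAS+TBI 2 was highest. mt-Cytb rose by 0.60 on the log2 scale (SE 0.10, edgeR adjusted p = 0.0215), by 0.76 within set 1 and 0.47 within set 2 in log2(CPM + 1). The call was lost without BCAS+TBI 2 (0.46, edgeR adjusted p = 0.450), and also without control 1 or BCAS 2, with the stricter gate (0.61, edgeR adjusted p = 0.101) and with at least 10 Zbtb20 UMIs (0.49, edgeR adjusted p = 0.239).

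All 13 mitochondrial genes tested were above 0 for BCAS, with a median of 0.569, beside a median of -0.00565 over all genes, and 0 of 13 were above 0 for TBI (median -0.297). Over all barcodes of a library, mitochondrial genes took 1.204 (control 1), 1.038 (control 2), 1.622 (BCAS 1), 0.7592 (BCAS 2), 1.75 (TBI 1), 0.5111 (TBI 2), 0.6576 (BCAS+TBI 1) and 2.772% (BCAS+TBI 2) of the UMIs. That share was highest in BCAS+TBI 2, and in set 2 control 2 was above both libraries with BCAS. In the other Slc17a7 nuclei 17 of 20 mitochondrial genes were above 0 for BCAS, with a median of 0.374 and none past the threshold. In members and in the other Slc17a7 nuclei, the quality limit of at most 5% mitochondrial UMIs per nucleus bounded these levels. The same holds for the mitochondrial calls of the combined surgery below. The part of that limit, and of the libraries' mitochondrial share, in the result was not tested.

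Fggy (chr4:95557507-95926939) stood at 30.8 (control 1), 56.2 (control 2), 55.2 (TBI 1) and 61.3 (TBI 2) CPM without BCAS and at 39.4 (BCAS 1), 7.06 (BCAS 2), 6.36 (BCAS+TBI 1) and 35.2 (BCAS+TBI 2) with it. It was low in both set 2 libraries with BCAS and not in those of set 1, so the arms overlapped. Among tested genes 0.547% were higher and 0.63% lower with BCAS without overlap. The mean was 22.0 ± 17.8 against 50.9 ± 13.6 (SD, n = 4 each), and Fggy fell by 1.73 on the log2 scale (SE 0.32, edgeR adjusted p = 0.0371). Within set 1 the difference was -0.15 and within set 2 -2.96. The call was lost without control 2 (-1.14), BCAS 2 (-1.11), TBI 2 (-1.47), BCAS+TBI 1 (-1.20) or BCAS+TBI 2 (-2.38), and with the stricter gate (-1.64, edgeR adjusted p = 0.165), at least 10 Zbtb20 UMIs (-1.73, edgeR adjusted p = 0.170) or a minimum count of 30 (-1.71, edgeR adjusted p = 0.0795). Below the threshold, the potassium channel-interacting gene Kcnip1 (1.12, edgeR adjusted p = 0.0865) and Prr5l, of the mTORC2 complex (2.20, edgeR adjusted p = 0.0874), were higher, and Ttn (-1.72, edgeR adjusted p = 0.100) and Btk (-3.78, edgeR adjusted p = 0.100) lower.

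The combined surgery was set against TBI alone, the comparison that the series title is about, with 2 libraries a side. In CA pyramidal nuclei 6 of 12070 genes passed, 0.0497%, with 4 higher (0.0331%) and 2 lower (0.0166%): mt-Cytb, mt-Nd2, mt-Rnr1 and mt-Rnr2 were higher and Nxph1 and Npy lower. An unadjusted p under 0.05 was found for 601 genes, and DESeq2 called 4. Without the library set term edgeR called 0, and its count was 1 without BCAS+TBI 2, 7 without BCAS+TBI 1 and 13 to 35 without any other library. Nxph1 encodes neurexophilin, a secreted ligand of neurexins, and Npy the peptide neuropeptide Y, both known from inhibitory neurons.

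Nxph1 (chr6:8948431-9249032) stood at 42.0 (TBI 1) and 115 (TBI 2) CPM and at 33.5 (BCAS+TBI 1) and 5.67 (BCAS+TBI 2), without overlap, as did 10.5% of genes in that direction. In the other groups it was 15.4 (control 1), 68.9 (control 2), 28.4 (BCAS 1) and 103 (BCAS 2). Nxph1 fell by 1.98 on the log2 scale (SE 0.23, edgeR adjusted p = 9.15e-05), by 2.69 within set 1 and by 1.75 within set 2. The call was lost without BCAS+TBI 1 (-2.68, edgeR adjusted p = 0.122).

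Of the 772 Nxph1 UMIs in members, 50.1% lay in nuclei with fewer than 10 Zbtb20 UMIs and 34.97% in nuclei with an inhibitory marker UMI, both above the shares of all UMIs. Without the latter nuclei the difference was -1.22 (edgeR adjusted p = 0.175), and with at least 10 Zbtb20 UMIs it was -2.35 (edgeR adjusted p = 0.00228). Members with an inhibitory marker UMI made up 11.7% (TBI 1), 20.34% (TBI 2), 12.12% (BCAS+TBI 1) and 9.244% (BCAS+TBI 2) of members.

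Npy (chr6:49822710-49829507) rested on 1 nucleus, which held 54 of its 61 UMIs in TBI 1. That library had 67.4 CPM, against 2.31 to 9.07 in the other 7. Npy fell by 2.46 on the log2 scale (SE 0.48, edgeR adjusted p = 0.0485), and without TBI 1 the value was -1.26 and not past the threshold. mt-Cytb rose by 1.01 (SE 0.15, edgeR adjusted p = 0.00173), and without BCAS+TBI 2 it was at 0.72 (edgeR adjusted p = 0.863). All 13 mitochondrial genes were above 0, with a median of 0.882, as were 19 of 20 in the other Slc17a7 nuclei (median 0.849, none past the threshold).

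For the combined surgery against control, edgeR called 0 of 12070 genes in CA pyramidal nuclei (0.0%) and DESeq2 called 0. By edgeR 515 genes had an unadjusted p under 0.05, and the smallest adjusted p was 0.0894. On simulated counts this comparison recovered 47% of 2-fold changes, so smaller changes could be missed. Without single libraries edgeR called 0 (without BCAS+TBI 2) to 6 (without control 1). The smallest p belonged to the pseudogenes Tmem181c-ps and Tmem181b-ps. The metabotropic receptor gene Grm8 was at 106 (control 1) and 314 (control 2) CPM and at 161 (BCAS+TBI 1) and 57.8 (BCAS+TBI 2), a difference of -0.95 with overlap (edgeR adjusted p = 0.342). The ephrin receptor gene Epha3 was at 367 and 469 in the controls and 348 and 206 after both surgeries, without overlap (-0.61, edgeR adjusted p = 0.342). Such a gap between the arms was found for 9.92% of genes in that direction and 9.26% in the other.

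The interaction asked whether the effect of TBI with BCAS differed from its effect without. It gave the longest list, 15 of 12070 genes (0.124%), each with a negative term: the log2 change after both surgeries was below the sum of the changes after each alone. By p-value they included Nxph1, Elmo1, Ulk4, Pcdh15, Sgcz, Rmst, Kcnip1, Brinp3 and Mid1, and further ones were Nhs, Angpt1, Gm13629, 6330411D24Rik and C130073E24Rik. An unadjusted p under 0.05 was found for 625 genes, and DESeq2 called 3. Without the library set term edgeR called 0, and without single libraries it called 2 (BCAS+TBI 2), 8 (BCAS+TBI 1), 10 (BCAS 2) and 15 to 31 without the others. The term had the same sign within each library set for all 15.

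Elmo1, an activator of Rac signalling in engulfment and spine remodelling, stood at 66.3 (control 1), 68.5 (control 2), 97.8 (BCAS 1), 150 (BCAS 2), 77.3 (TBI 1), 99.7 (TBI 2), 65.3 (BCAS+TBI 1) and 30.6 (BCAS+TBI 2) CPM. The BCAS libraries and TBI 2 were highest and BCAS+TBI 2 lowest. The interaction was -1.80 (SE 0.28, edgeR adjusted p = 0.00492), and the call was lost without control 2 (-1.38), BCAS 2 (-1.65) or BCAS+TBI 2 (-1.58). Without members that had an inhibitory marker UMI it was -1.56 (edgeR adjusted p = 0.0434), but the call was lost with the stricter gate (-1.43, edgeR adjusted p = 0.163) and with at least 10 Zbtb20 UMIs (-1.47, edgeR adjusted p = 0.103).

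Ulk4, a pseudokinase gene of neuronal and ciliary function, stood at 37.0 (control 1), 43.4 (control 2), 101 (BCAS 1), 81.9 (BCAS 2), 111 (TBI 1), 99.4 (TBI 2), 78.6 (BCAS+TBI 1) and 64.6 (BCAS+TBI 2) CPM. Every library with BCAS or TBI was above both controls, and the share of all tested genes with this order was not counted. The interaction was -1.61 (SE 0.26, edgeR adjusted p = 0.00816), -2.19 within set 1 and -1.23 within set 2, and among single libraries left out its call was lost without BCAS+TBI 2 (-1.44, edgeR adjusted p = 0.197). It was also lost without the library set term (-1.69), by DESeq2 (-1.66, adjusted p = 0.109), in Fibcd1-positive nuclei alone (-1.09, edgeR adjusted p = 0.846) and, pairing libraries by replicate number, with the replicate block (-1.69). Its UMIs were spread over 534 members, 47.64% of them, with 14.9% in nuclei with an inhibitory marker UMI, close to the 15.64% of all UMIs. Without those nuclei it was -1.64 (edgeR adjusted p = 0.0114), and with at least 10 Zbtb20 UMIs -1.77 (edgeR adjusted p = 0.00934).

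Mid1, an X-linked ubiquitin ligase gene at chrX:169685199-170005736, stood at 12.3 (control 1), 18.9 (control 2), 101 (BCAS 1), 138 (BCAS 2), 26.5 (TBI 1), 117 (TBI 2), 23.7 (BCAS+TBI 1) and 94.1 (BCAS+TBI 2) CPM. Its libraries fell into a low and a high level, and in both TBI groups 1 library was at each. The interaction was -3.52 (SE 0.64, edgeR adjusted p = 0.0129), but the call was lost without control 2, BCAS 2, TBI 2 (-1.71) or BCAS+TBI 1 (-2.01). The mouse gene reaches into the pseudoautosomal region.

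Several interaction genes had more of their UMIs in members with few Zbtb20 UMIs than all UMIs did. Elmo1 had 42.6% of its UMIs in members with fewer than 10. Kcnip1 and Rmst had UMIs in 98 and 129 members, and Sgcz, Pcdh15 and Brinp3 in 525, 531 and 430. Sgcz, a sarcoglycan, had 62.1% of its UMIs in members with fewer than 10 Zbtb20 UMIs, Kcnip1 54.8%, Brinp3 50.8%, Pcdh15, a protocadherin, 47.5% and Rmst, a long noncoding RNA, 47.1%, against 21.91% of all UMIs. Their interaction terms were -1.37 (Sgcz), -2.54 (Kcnip1), -1.77 (Brinp3), -1.21 (Pcdh15) and -2.49 (Rmst). Rmst stood at 1.54 CPM in control 1 and 59.2 in control 2, so that the controls alone spanned most of its range. Without members with an inhibitory marker UMI 4 of the 15 genes passed, Elmo1, Ulk4, Rmst and Mid1, and with at least 10 Zbtb20 UMIs 5 genes passed, of which 4 were among the 15 (Nxph1, Ulk4, Mid1 and 6330411D24Rik). The share of members with fewer than 10 Zbtb20 UMIs was 17.07% (control 1), 23.94% (control 2), 34.09% (BCAS 1), 26.85% (BCAS 2), 25.53% (TBI 1), 22.03% (TBI 2), 26.06% (BCAS+TBI 1) and 20.17% (BCAS+TBI 2), and its part in the interaction was not tested.

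**Figure D4:**
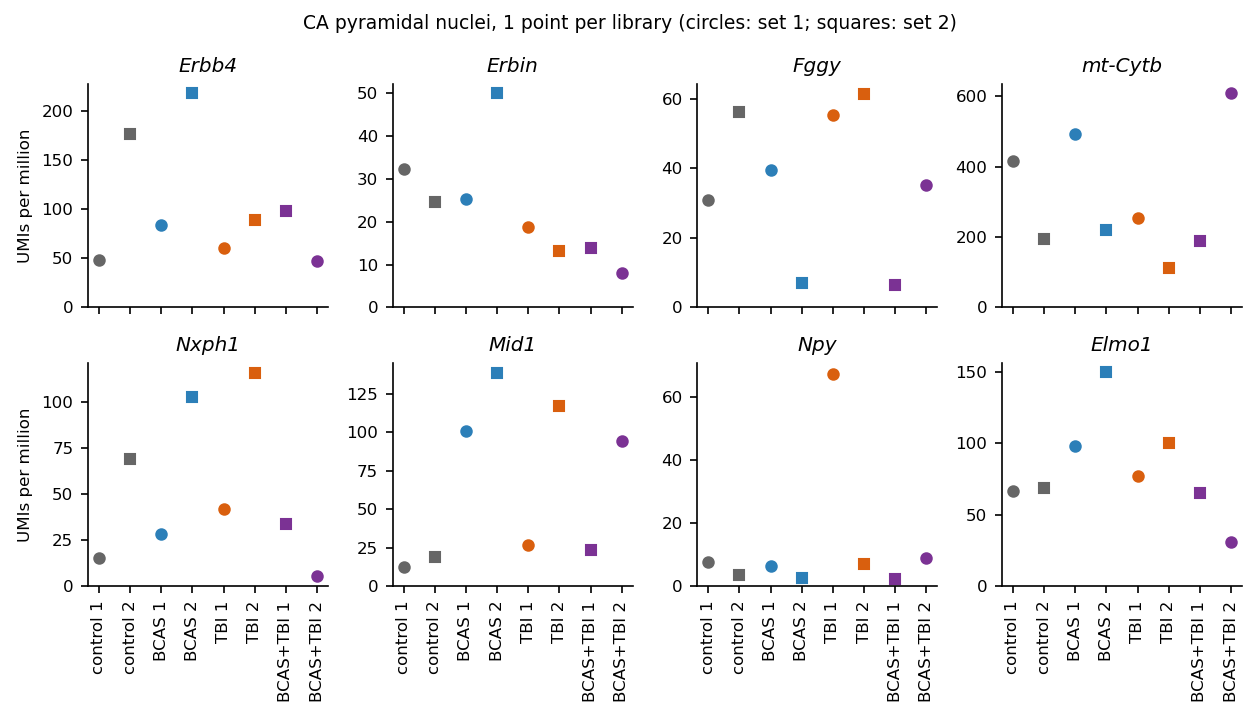
Level in CPM in the summed CA pyramidal nuclei of each library for 8 genes called in at least 1 comparison, by group, with circles for library set 1 and squares for set 2. Erbin is lower in all 4 libraries with TBI, Npy rests on TBI 1, Fggy is low in 2 set 2 libraries and Mid1 falls into a low and a high level.

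The same comparisons run on each kind of nucleus alone had less depth for the Fibcd1-positive nuclei. With 4649 genes tested there, edgeR called 0 for TBI (0.0%, 203 at an unadjusted p under 0.05), 1 for BCAS (0.0215%), 0 for each comparison of the combined surgery (164 genes against TBI and 182 against control at an unadjusted p under 0.05) and 8 for the interaction (0.172%). The BCAS call was Erbb4 (1.78, edgeR adjusted p = 0.0383), at 0 (control 1), 176 (control 2), 0 (TBI 1) and 73.6 (TBI 2) CPM without BCAS and 43.8 (BCAS 1), 377 (BCAS 2), 372 (BCAS+TBI 1) and 7.79 (BCAS+TBI 2) with it. Its values overlapped between the arms, and the 3 high ones came from set 2. The interaction calls were all negative and included Unc5d, a netrin receptor (-4.29, edgeR adjusted p = 0.00501), Car10, Trpm3, Adarb2, Dpp10, Zfpm2 and Tshz2. Unc5d was at 71.6 (control 1) and 73.5 (control 2) CPM and at 156 to 1050 in the 6 libraries with BCAS or TBI. How many of the tested genes had such a gap was not counted.

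In the Fibcd1-negative nuclei 11506 genes were tested and edgeR called 3 for TBI (0.0261%), 4 for BCAS (0.0348%), 6 for the combined surgery against TBI (0.0521%), 0 against control (0.0%, 463 at an unadjusted p under 0.05) and 8 for the interaction (0.0695%). The TBI calls were the same 3 genes as in all members, with Erbb4 at -1.05 (edgeR adjusted p = 0.0147) and Erbin at -1.42 (edgeR adjusted p = 0.0222). In Fibcd1-positive nuclei the Erbb4 value for TBI was -0.74 (edgeR adjusted p = 1.00), and Erbin was not tested there. Whether the 2 kinds of nuclei responded differently was not tested.

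Function lists of 273 genes, grouped by role, held 234 that passed the filter on low counts. edgeR called 0 of them for TBI, BCAS and both comparisons of the combined surgery, and 1 (Kcnip1) for the interaction. At an unadjusted p under 0.05 there were 21 for TBI (8.974%, against 4.921% of all genes), 25 for BCAS (10.68% against 4.358%), 22 for the combined surgery against TBI (9.402% against 4.979%), 21 for it against control (8.974% against 4.267%) and 18 for the interaction (7.692% against 5.17%). The smallest adjusted p was 0.188 for TBI and 0.0865 for BCAS. The median over the list genes was -0.01 for both surgeries, beside 0.00 and -0.01 over all genes.

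No ionotropic glutamate receptor gene passed the threshold. The 12 AMPA genes had a median of 0.01 for TBI and 0.08 for BCAS (-0.10 to 0.66), the 6 kainate genes 0.04 and -0.01 (-0.54 to 0.26 for BCAS), and the 5 NMDA genes tested 0.06 and -0.08. Gria2, the subunit that sets the calcium permeability of AMPA receptors, stood between 2150 and 2543 CPM in all 8 libraries (TBI 0.01, SE 0.07, edgeR adjusted p = 0.999). Grik1, a kainate receptor gene, was at -0.54 for BCAS (edgeR adjusted p = 0.919) and -0.89 for the combined surgery against TBI (edgeR adjusted p = 0.617), both with an unadjusted p under 0.05. Grin2a was between 1927 and 2451 (TBI 0.07, edgeR adjusted p = 0.99).

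Of the metabotropic receptor and Homer genes none passed the threshold, with 8 of 10 values below 0 for TBI (median -0.11) and 8 of 10 for BCAS (median -0.07). Grm3, a group II receptor, was at 77.0 (control 1), 130 (control 2), 97.8 (BCAS 1) and 204 (BCAS 2) CPM without TBI and at 78.4 (TBI 1), 93.2 (TBI 2), 118 (BCAS+TBI 1) and 59.0 (BCAS+TBI 2) with it. Its arms overlapped (-0.54, SE 0.13, edgeR adjusted p = 0.222). Grm8, a presynaptic group III receptor, was at -0.47 for TBI (edgeR adjusted p = 0.618) and -0.49 for BCAS (edgeR adjusted p = 0.736).

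Channels, kinases and calcium handling genes had medians between -0.05 and 0.04 for either surgery. Kcnh7 had the smallest p of the lists for TBI, at 587 (control 1), 1112 (control 2), 590 (BCAS 1) and 1200 (BCAS 2) CPM without it and at 494 (TBI 1), 890 (TBI 2), 843 (BCAS+TBI 1) and 455 (BCAS+TBI 2) with it. In each set the libraries with TBI were below those without, and across sets the arms overlapped (-0.37, SE 0.08, edgeR adjusted p = 0.188). The share of tested genes with this order within sets was not counted.

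Activity and injury genes were sparse. Of 21 immediate early genes 15 were tested, 10 above 0 for TBI (median 0.11) and 10 below 0 for BCAS (median -0.10), none past the threshold. Npas4, an activity-dependent transcription factor, was at 10.8, 9.65, 7.89 and 3.26 CPM in control 1, control 2, BCAS 1 and BCAS 2 and at 12.1, 10.1, 12.1 and 10.2 in TBI 1, TBI 2, BCAS+TBI 1 and BCAS+TBI 2 (0.70, edgeR adjusted p = 0.99), with overlap. Of 19 injury, regeneration and cell death genes only 9 had enough counts to be tested. Atf3, the injury-induced transcription factor, had 1 UMI in all 1121 members and Sprr1a 0, which allows a level of up to 3 UMIs.

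No hypoxia, glycolysis or stress gene passed the threshold for BCAS. Of 19 hypoxia and glycolysis genes 13 were above 0 (median 0.10), and of 12 heat shock and unfolded protein genes 8 (median 0.15). Slc2a1, the glucose transporter GLUT1, stood at 4.62 (control 1), 3.51 (control 2), 9.94 (TBI 1) and 3.88 (TBI 2) CPM without BCAS and at 14.2 (BCAS 1), 13.6 (BCAS 2), 7.52 (BCAS+TBI 1) and 12.5 (BCAS+TBI 2) with it. TBI 1 overlapped the BCAS libraries (1.22, SE 0.36, edgeR adjusted p = 0.671), and the gene, which blood vessels also express, had 88 UMIs. Hspa5, the endoplasmic reticulum chaperone BiP, was at 0.36 (edgeR adjusted p = 0.821).

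No axon guidance or adhesion gene passed the threshold, and 18 of 26 values were below 0 for TBI (median -0.08) and 19 of 26 for BCAS (median -0.09). The ephrin receptors Epha3 (-0.29), Epha5 (-0.27) and Epha6 (-0.25) had unadjusted p under 0.01 for BCAS and edgeR adjusted p of 0.812, 0.763 and 0.623. Epha3 was also at -0.33 for TBI (edgeR adjusted p = 0.485).

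**Figure D5:**
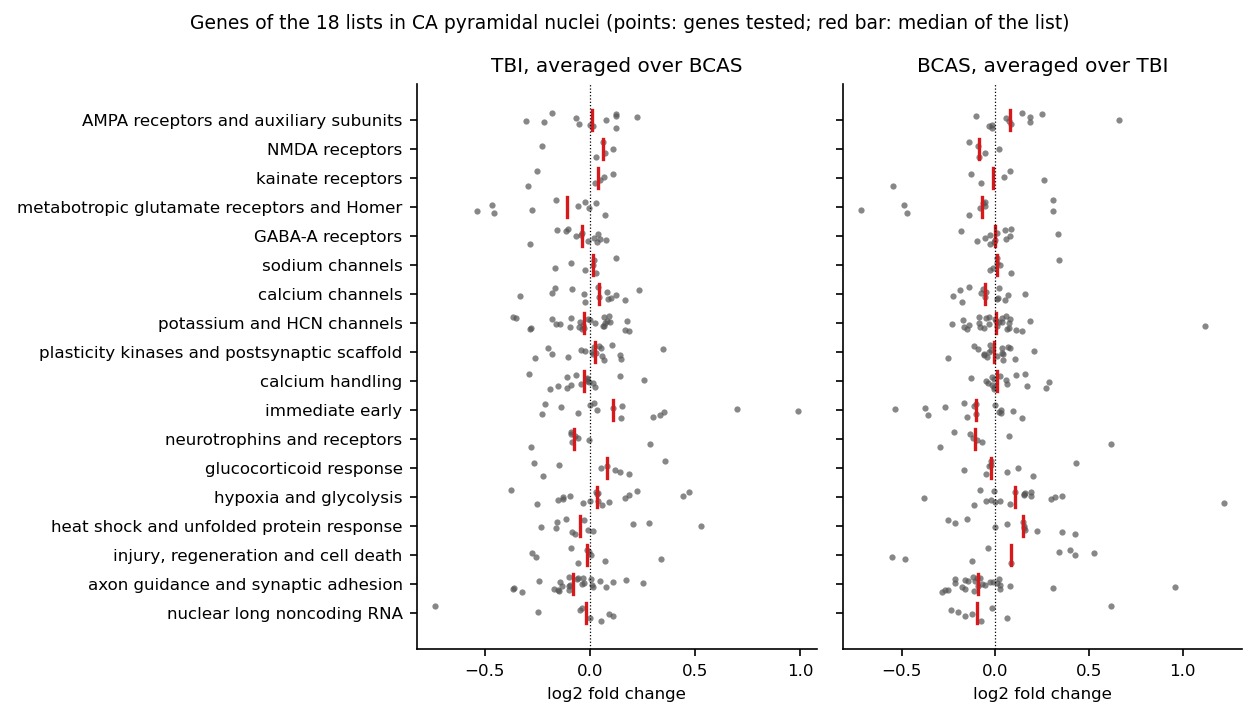
log2 difference per gene for TBI (left) and BCAS (right) in CA pyramidal nuclei, 1 row of points for each of 18 function lists, with the median as a red bar. Most points lie close to 0. The metabotropic receptor, axon guidance, neurotrophin, GABA-A receptor and nuclear long noncoding RNA lists have medians below 0 for both surgeries.

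Whether CA pyramidal nuclei responded differently from the other Slc17a7 nuclei of the same libraries was tested on 17466 genes as the difference between the 2 responses. For TBI 15 genes passed (0.0859%; 6, or 0.0344%, with a more positive and 9, or 0.0515%, with a more negative value in CA pyramidal nuclei), and 810 had an unadjusted p under 0.05. DESeq2 called 0, edgeR without the library set term 3, and without single libraries edgeR called 10 (BCAS+TBI 1) to 26 (BCAS 2). In the other Slc17a7 nuclei alone edgeR called 0 of 18909 genes for TBI (0.0%, 694 at an unadjusted p under 0.05) and 0 for BCAS (0.0%, 513). The rule used levels within nuclei and not the group of a library.

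Erbb4 and Erbin led the TBI difference. In the other Slc17a7 nuclei Erbb4 was at 166 (control 1), 155 (control 2), 146 (BCAS 1) and 164 (BCAS 2) CPM without TBI and at 141 (TBI 1), 256 (TBI 2), 135 (BCAS+TBI 1) and 142 (BCAS+TBI 2) with it. The difference between responses was -0.997 (SE 0.12, edgeR adjusted p = 3.69e-10), lost without control 2 (-0.49) or TBI 2 (-0.33). Erbin was at 24.7 to 42.5 CPM in the other nuclei, with a difference of -1.19 (SE 0.22, edgeR adjusted p = 0.00113), lost without BCAS 2 (-0.84) or TBI 2 (-1.02). Both held without members with an inhibitory marker UMI (-1.51 for each gene). The other Slc17a7 nuclei kept their nuclei with such a UMI, so this setting filters only 1 side of the difference. The Erbb4 difference was lost with the stricter gate (-0.59, edgeR adjusted p = 0.127), without the highest Scrublet scores (-0.36, edgeR adjusted p = 0.895) and without the library set term (-0.96, edgeR adjusted p = 0.153). The Erbin difference was lost with a minimum count of 30 (-1.20, edgeR adjusted p = 0.0698).

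Further named genes passed the test of the TBI difference in both directions. The serotonin receptor Htr2c (-0.51, edgeR adjusted p = 0.00506), the lipid phosphatase Inpp4b (-0.48, edgeR adjusted p = 0.00933), the lysophospholipase Enpp2 (-0.62, edgeR adjusted p = 0.0189), the matrix protease Adamts18 (-1.56, edgeR adjusted p = 0.0189) and Grm3 (-0.48, edgeR adjusted p = 0.0288) responded more negatively in CA pyramidal nuclei. Etv1, an ETS transcription factor (0.57, edgeR adjusted p = 0.00796), Frmpd4, a postsynaptic scaffold (0.30, edgeR adjusted p = 0.0245), and Asph (0.41, edgeR adjusted p = 0.0370) responded more positively. Frmpd4 was at 1854 to 2524 CPM in members and 1037 to 1557 in the others. Members with fewer than 10 Zbtb20 UMIs held 54.1% of the UMIs of Grm3, 44.8% of Enpp2, 31.4% of Adamts18, 31.3% of Htr2c and 29.9% of Inpp4b. For Etv1, Frmpd4 and Asph the share was 19.9, 15.1 and 12.7%, beside 21.91% of all UMIs. Adamts18 had 102 UMIs in 65 nuclei, and 1 nucleus held 36 of the 72 Enpp2 UMIs of BCAS 1. Ctgf (5.33) rested on 35 UMIs in 15 nuclei, and Mybpc1 (3.82) on 1 nucleus with 25 of the 26 UMIs of TBI 1.

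For BCAS the difference passed in 21 genes (0.12%; 15, or 0.0859%, more positive and 6, or 0.0344%, more negative in CA pyramidal nuclei), 838 had an unadjusted p under 0.05, and DESeq2 called 0. edgeR called 0 without the library set term, 7 without BCAS+TBI 1, 9 without BCAS 2 and 15 to 28 without any other library. The more negative ones included Ccbe1 and Col11a1, which were also higher in members than in the other nuclei, and the semaphorin Sema5b. Their values were Ccbe1 (-0.49, edgeR adjusted p = 0.00663), Col11a1 (-0.48, edgeR adjusted p = 0.00911) and Sema5b (-1.03, edgeR adjusted p = 0.000561). Sema5b was at 35.4 (control 1), 42.6 (control 2), 28.7 (TBI 1) and 55.5 (TBI 2) CPM in members without BCAS and at 17.4 (BCAS 1), 33.6 (BCAS 2), 28.9 (BCAS+TBI 1) and 20.4 (BCAS+TBI 2) with it. In the other nuclei it was at 21.0 to 32.5.

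More positive in CA pyramidal nuclei were Chst9, a sulfotransferase (0.74, edgeR adjusted p = 0.00132), Npsr1, the neuropeptide S receptor (1.40, edgeR adjusted p = 0.00911), Ptchd4 (0.53, edgeR adjusted p = 0.00911) and Sgcz (0.46, edgeR adjusted p = 0.000561). Chst9 was at 30.9 to 67.6 CPM without BCAS and 53.6 to 98.9 with it. Members with fewer than 10 Zbtb20 UMIs held 62.1% of the UMIs of Sgcz, 60.5% of Npsr1, 36.4% of Ptchd4 and 12.6% of Chst9, against 21.91% of all UMIs. Npsr1 had 134 UMIs in 46 nuclei, and 1 nucleus held 19 of its 40 UMIs in BCAS+TBI 1. Mecom (2.31), Slco1a4 (1.77) and Flt1 (1.37), genes of blood vessel walls, also passed, and their UMIs came from 23, 29 and 34 member nuclei. Without the nuclei with the highest Scrublet scores none of these 3 passed, and Flt1 turned to -0.25, with Mecom at 0.88 and Slco1a4 at 0.40 (edgeR adjusted p = 1.0 for both). The summed vascular marker list in members was at 20.03 (control 1), 28.5 (control 2), 20.5 (BCAS 1), 50.5 (BCAS 2), 54.1 (TBI 1), 14.7 (TBI 2), 42.8 (BCAS+TBI 1) and 34.0 (BCAS+TBI 2) CPM, and its part in the result was not tested.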

How the data were processed

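The deposited files held raw UMI counts per gene and barcode for 8 libraries, written by Cell Ranger 7.0.0 per the file headers, with Seurat and GRCm38 (mm10) named in the submitters' processing notes. Nuclei came from flash-frozen tissue and were run on a Chromium 3' kit, per the labels' protocols. Counts of members were summed per library and tested with edgeR 4.0.16 (R 4.3.3) by quasi-likelihood, with TMM scaling, filterByExpr at a minimum count of 10, group and library set as terms, and Benjamini-Hochberg adjustment over all genes of a comparison at 0.05. The TBI and BCAS effects were averaged over the other surgery, and all groups entered each fit. Member shares were compared by exact permutation. The library sets were divided at the widest gap in total UMIs. Scripts were tested on simulated counts with 100 genes changed 2-fold and 100 changed 4-fold. Of the 2-fold changes 25% (interaction) to 66% (BCAS) were recovered, and of the 4-fold changes 74% (interaction) to 94% (TBI). False calls numbered 11 (TBI) to 20 per comparison, with 19 for the interaction. The alternatives were DESeq2 1.42.0, other filters and scaling, other limits on nuclei, removal of the 6% of barcodes with the highest Scrublet scores (doublets were otherwise kept), and leaving out each library.

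Genes were named by p-value among those past the threshold, up to 10 a direction, without overlap between the arms (not asked of interactions and of differences between populations), leaving out predicted, mitochondrial and rule genes. Where fewer than 5 passed, the 5 with the smallest p-values were named. For side-by-side levels the largest ratios of CPM + 10 among genes ordered alike in every library were named, 15 a side for the Fibcd1 split and 25 for members. Other called genes, and genes of the lists, are named beside them. The members and lists were chosen with earlier results of these data known. Some genes that the rule names are not reported here.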

Additional observations from a re-analysis of the deposited data

Results flagged for a closer look

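The interaction of TBI and BCAS passed the threshold for 9 named genes in CA pyramidal nuclei. These calls were lost without the library set term and with the replicate block. The terms were -2.60 for Nxph1, -1.80 for Elmo1, -1.61 for Ulk4, -1.21 for Pcdh15, -1.37 for Sgcz, -2.49 for Rmst, -2.54 for Kcnip1, -1.77 for Brinp3 and -3.52 for Mid1, on the log2 scale. Members with fewer than 10 Zbtb20 UMIs held 62.1% of the Sgcz UMIs, against 21.91% of all UMIs. Mid1 was at 26.5 (TBI 1), 117 (TBI 2), 23.7 (BCAS+TBI 1) and 94.1 (BCAS+TBI 2) CPM.

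The TBI response of CA pyramidal nuclei differed from that of the other Slc17a7 nuclei for 14 named genes by edgeR, and these calls were lost with DESeq2. It was more negative in CA pyramidal nuclei for Erbb4 (-0.997), Erbin (-1.19), Htr2c (-0.51), Inpp4b (-0.48), Adamts18 (-1.56), Enpp2 (-0.62), Vwc2l (-0.69), Grm3 (-0.48) and Otx2os1 (-2.22). It was more positive for Ctgf (5.33), Mybpc1 (3.82), Etv1 (0.57), Frmpd4 (0.30) and Asph (0.41). Ctgf had 35 UMIs in 15 nuclei, and 1 nucleus held 25 of the 26 Mybpc1 UMIs of TBI 1. Vwc2l turned to 0.34 without control 2, and 71.8% of its UMIs lay in members with fewer than 10 Zbtb20 UMIs. Otx2os1 had 53 UMIs in 27 nuclei.

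By the same test the BCAS response differed for 15 named genes, and these calls were lost with DESeq2 and without the library set term. It was more positive in CA pyramidal nuclei for Sgcz (0.46), Mecom (2.31), Chst9 (0.74), Slco1a4 (1.77), Prr5l (2.10), Ptgds (0.69), Kcnip1 (1.05), Npsr1 (1.40), Ptchd4 (0.53) and Flt1 (1.37). Without the nuclei with the highest Scrublet scores Flt1 turned to -0.25. The response was more negative for Sema5b (-1.03), Ccbe1 (-0.49), Col11a1 (-0.48), Nxph1 (-0.68) and Ttn (-1.69). Prr5l had 81 UMIs in 31 nuclei. Of the Ttn UMIs, 1 nucleus held 18 of 42 in control 2 and 1 held 21 of 51 in TBI 2.

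In 2 cases 1 library stood far from the other 3 of its arm. Tmem181c-ps was at 34.2 CPM in TBI 1 among the libraries with TBI, and Btk was at 6.80 CPM in BCAS+TBI 2 among the libraries with BCAS. With 28 groups of 4 libraries looked at, chance sets apart about 1 in 20.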

How the results depend on the processing

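The counts of called genes depended on the settings. In the order TBI, BCAS, the combined surgery against TBI and the interaction (3, 5, 6 and 15 as reported), no filter on low counts gave 38, 38, 45 and 50, no library set term 0 in each, and Fibcd1-positive nuclei alone 0, 1, 0 and 8. DESeq2 gave 0 for TBI, 0 for BCAS and 3 for the interaction, and the stricter gate (at least 6 Zbtb20 UMIs and 3 of Fibcd1 and Grik4) gave 1, 1 and 6. Members with at least 10 Zbtb20 UMIs gave 1, 1 and 5, and those without an inhibitory marker UMI 5 for TBI and 4 for the interaction; both were chosen after seeing the data. Without the highest Scrublet scores there were 6 for TBI and 10 for the combined surgery against TBI, and Fibcd1-negative nuclei gave 8 for the interaction. The combined surgery against control went from 0 to 21 with no filter and to 2 without inhibitory marker UMIs. For the difference between populations, the TBI count of 15 became 0 (DESeq2), 25 (RLE scaling), 1 (minimum count of 30), 3 (no library set term), 9 (at least 2000 UMIs), 34 (without members of high UMIs), 23 (Scrublet), 24 (inhibitory) and 26 (Zbtb20), and the BCAS count of 21 became 0, 2 (minimum count of 30), 0 (no library set term), 12 (at least 2000 UMIs), 8 (Scrublet) and 10 (Zbtb20). The cause of these changes was not tested.

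Without single libraries the counts ran from 0 to 28 (TBI), 0 to 16 (BCAS), 1 to 35 (combined against TBI), 0 to 6 (combined against control), 2 to 31 (interaction), 10 to 26 (TBI difference) and 7 to 28 (BCAS difference). The share differences ran from 0.149 to 0.723 (TBI) and from -0.482 to 0.0882 percentage points (BCAS), and for the Fibcd1-positive share from 0.223 to 1.88 and from -1.44 to 0.388. The BCAS share difference turned to 0.202 in thinned nuclei, 0.0882 without control 2, 0.0267 without BCAS 1 and 0.0727 without TBI 2. The Fibcd1-positive share turned to -1.59 (TBI) with the stricter gate and to 0.388 (BCAS) without BCAS 2. Single genes turned sign for Tmem181c-ps without BCAS 2 (1.01; -5.03 without TBI 1), Vwc2l without control 2 (0.34; -0.93 without BCAS 2), Flt1 without the highest Scrublet scores (-0.25), and Epha3 for BCAS (0.10) and Aldoa for the interaction (-0.15) in Fibcd1-positive nuclei.

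The replicate numbers followed the library sets in control, BCAS and TBI but not in BCAS+TBI. Deviations from the group mean of libraries with the same number correlated at 0.443 to 0.51 within a library set. Across sets, in pairs with a BCAS+TBI library, they correlated at -0.568 to -0.559. With 2 libraries a group the deviations are mirror images, so each pair of groups gives 1 value with both signs. With the replicate block edgeR called 0 genes for TBI, BCAS, the combined surgery against TBI and the interaction, 4 for the TBI difference and 1 for the BCAS difference. With 82 to 236 members a library, and 12 to 38 of them Fibcd1-positive, depth limits the genes of few UMIs most.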
